A study of Mus musculus with 96 samples.

Results

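The 10 genes studied belong to the pericentral Wnt programme of mouse liver and were followed through 96 RNA-seq libraries: Glul, Axin2, Oat, Lgr5, Rhbg, Slc1a2, Tbx3, Cyp2e1, Lect2 and Rnf43. They were taken by symbol from a raw count table of 47373 genes, and each of the 10 was found once and passed the low-count filter in every comparison. The set was chosen by name, with no threshold on a measured value, but with earlier results of these data known.

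Hepatocytes around the central vein receive Wnt ligands and R-spondins, made mainly by endothelial cells, that hold the transcriptional co-activator beta-catenin stable. Stable beta-catenin enters the nucleus, where it acts with TCF/LEF factors. The genes that respond include enzymes and transporters that capture ammonium and glutamate in the last cells that blood passes before it leaves the lobule. Glul makes glutamine from glutamate and ammonium. Slc1a2 takes up glutamate, Rhbg carries ammonium, Oat converts ornithine to glutamate semialdehyde and Cyp2e1 oxidises ethanol and many small molecules. Axin2 is a scaffold of the beta-catenin destruction complex and a feedback target, Rnf43 is a ubiquitin ligase that removes Frizzled receptors from the cell surface, and Lgr5 is a receptor for R-spondins. Tbx3 is a T-box transcription factor, and Lect2 encodes a secreted hepatokine. Phenobarbital activates the nuclear receptor CAR in hepatocytes and is known for inducing drug-metabolising enzymes of the Cyp2b and Cyp2c families.

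The animals were male B6C3F1 mice of 10 to 11 weeks. For 7 days, 6 mice drank water with 600 ppm phenobarbital and 6 controls drank water with 0 ppm. Pieces of several lobes of each liver were mixed, flash frozen and divided into 4 portions, from which 8 states were made, so that every animal gave 1 library to each state. The states were frozen tissue, and tissue held in 70% ethanol for 3 months before paraffin embedding. A further state was tissue held in 10% formalin for 18 hours and then in 70% ethanol up to 3 months, and another was tissue held in 10% formalin for 3 months. The other four states used the 3-month formalin material: its isolated RNA heated for 30 minutes at 70 °C in tris-acetate EDTA (TAE) buffer, an incubation of 18 hours at 55 °C during RNA isolation with no catalyst (AllPrep kit), and the same incubation with an organocatalyst in the AllPrep or the PureLink kit. Controls and treated mice shared all of these steps. RNA of frozen tissue was isolated with RNAzolRT and a silica column, so fixation and isolation method cannot be told apart in comparisons with frozen tissue. The material is bulk liver, so it does not show in which zone a transcript lay, and fewer cells of a type and less RNA per cell cannot be told apart.

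Library totals ran from 1264563 to 18442730 counts with a median of 11913138.5. By state the median was highest in frozen tissue (15151571) and lowest in 3-month formalin tissue (9070951.5), where 1 control library (animal 8A) was the shallowest of all. Hepatocyte markers (Alb, Apoa1, Ttr, Tf, Apob and Fgb) summed to between 101768 and 119959 CPM (a count scaled to a fixed library size, with TMM factors that align libraries) in frozen controls. No marker of hepatocytes, endothelium, Kupffer cells, stellate cells, bile duct cells or red cells had a mean of 0 in frozen liver. The lowest were Krt19 and Krt7, both at a mean of 0.68 CPM over the 12 mice.

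Upstream sequence could be set beside the expression values for 7 of the 10 members, which matched the RefSeq promoter table (GRCm38.p6, 250 bases before to 50 after each annotated start). Because the set is defined by beta-catenin dependence, each window was searched on both strands for the TCF/LEF core CTTTGA and its reverse complement TCAAAG. A match was found in 3 of 8 member windows (37.5%), against 5257 of 32851 windows in the table (16.0%). Lgr5, Rhbg and Tbx3 were not matched. The stretches below hold no base of an annotated exon and show the members with a match, together with Oat, which had none. All run 5′ to 3′ on the strand of the gene, with the motif in capitals. They come from chr2:102706188-102706355 (Slc1a2, plus strand, within the annotated span of the gene), chr7:140763569-140763738 (Cyp2e1, plus strand), chr13:56548539-56548788 (Lect2, minus strand) and chr7:132576399-132576648 (Oat, minus strand).
Slc1a2: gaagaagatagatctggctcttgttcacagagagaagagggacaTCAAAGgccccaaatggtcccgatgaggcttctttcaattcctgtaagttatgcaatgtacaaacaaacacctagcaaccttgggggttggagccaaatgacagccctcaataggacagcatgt
Cyp2e1: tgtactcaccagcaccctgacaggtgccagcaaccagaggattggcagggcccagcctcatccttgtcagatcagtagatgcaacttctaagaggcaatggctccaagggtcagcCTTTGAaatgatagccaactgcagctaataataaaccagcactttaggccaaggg
Lect2: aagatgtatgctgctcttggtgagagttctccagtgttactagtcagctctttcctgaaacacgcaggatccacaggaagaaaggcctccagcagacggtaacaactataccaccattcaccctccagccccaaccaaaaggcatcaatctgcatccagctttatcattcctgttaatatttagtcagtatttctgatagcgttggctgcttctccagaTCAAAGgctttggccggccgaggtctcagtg
Oat: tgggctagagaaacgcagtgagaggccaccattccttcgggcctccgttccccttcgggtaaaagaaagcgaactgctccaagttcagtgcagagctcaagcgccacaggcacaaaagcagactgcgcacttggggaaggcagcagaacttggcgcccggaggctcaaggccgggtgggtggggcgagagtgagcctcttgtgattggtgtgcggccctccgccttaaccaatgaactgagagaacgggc

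The match in Lect2 began 31 bases before the RefSeq start and that in Cyp2e1 135 bases before it. Slc1a2 held 2 matches, the printed one 206 bases before its start and another 77 bases before it. A match in a window of this length is a description of letters and does not show that a factor binds there.

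In frozen liver, phenobarbital divided the 10 genes. Glul, Slc1a2 and Lgr5 fell and Lect2 rose, while the other 6 did not pass the test (edgeR quasi-likelihood test, Benjamini-Hochberg adjusted p below 0.05 over all genes, 6 against 6 mice). That is 4 of 10 members called, against 9.43% of the 13929 genes tested in this comparison.

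Of the 4 glutamate and ammonium genes, Glul and Slc1a2 fell in frozen liver, and Oat and Rhbg did not pass. Frozen controls held Glul (chromosome 1, 153899944 to 153909723, plus strand) at 933 CPM in the lowest animal, a median of 1039 and 1141 in the highest. With phenobarbital the same values were 637, 755 and 865 CPM. Every treated animal lay below every control, and the fitted fold was 1.38 lower (log2 -0.47, SE 0.09, adjusted p = 0.0058). Slc1a2 (chromosome 2, 102658659 to 102790784, plus strand) ran from 130.0 through a median of 163 to 187 CPM in controls and from 74.98 through 101 to 132 CPM in treated mice. The groups touched only at their edges, and the gene fell 1.59-fold (log2 -0.67, SE 0.13, adjusted p = 0.0052).

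Oat, the mitochondrial aminotransferase (chromosome 7, 132557478 to 132576398, minus strand), spread more widely between animals. Its lowest, median and highest levels were 311, 471 and 659 CPM in frozen controls and 220, 303 and 426 CPM with phenobarbital. Of the 6 treated mice 4 lay below the lowest control, and the log2 difference of -0.57 (SE 0.18) did not pass (adjusted p = 0.066). It passed without animal 82B (adjusted p = 0.036), without animal 20D (adjusted p = 0.034), and with DESeq2 on all animals (adjusted p = 0.027). Rhbg, the ammonium carrier (chromosome 3, 88242874 to 88254709, minus strand), was the scarcest member. It lay between 1.65 and 2.99 CPM in frozen controls and between 1.33 and 3.11 CPM in treated mice, from 21 to 43 counts per library. Its log2 difference of 0.34 (SE 0.22) did not pass (adjusted p = 0.37).

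Cyp2e1 (chromosome 7, 140763739 to 140774987, plus strand), the most abundant member, did not fall. Frozen controls ran from 4274 through 4670 to 6422 CPM, and treated mice from 5391 through 5644 to 6718 CPM. Only 1 control, animal 21C at 6422 CPM, reached into the treated range. The log2 difference of 0.28 did not pass with that animal (adjusted p = 0.14) and passed without it (log2 0.37, adjusted p = 0.024).

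Among the receptor and feedback genes only the R-spondin receptor moved past the threshold. Lgr5 (chromosome 10, 115450311 to 115587780, minus strand) ran from 7.89 through 15.4 to 19.2 CPM in frozen controls and from 3.80 through 7.35 to 10.7 CPM with phenobarbital, where 5 of 6 treated mice lay below the lowest control. It fell 2.02-fold (log2 -1.01, SE 0.25, adjusted p = 0.022), the largest fitted change of the 10. The call rested on 60 to 251 counts per library, and it was lost without animal 8D, 90C or 20B (highest adjusted p = 0.054) and with limma voom on all animals (adjusted p = 0.054).

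Axin2 and Rnf43, which both dampen the pathway, gave smaller differences inside the spread of the animals. Axin2 (chromosome 11, 108920349 to 108950783, plus strand) ran from 8.82 through 12.6 to 15.6 CPM in frozen controls and from 7.09 through 9.52 to 14.2 CPM with phenobarbital (log2 -0.27, SE 0.17, adjusted p = 0.37). Rnf43 (chromosome 11, 87662722 to 87735539, plus strand) ran from 34.3 through 41.5 to 54.8 CPM and from 25.6 through 39.1 to 47.4 CPM (log2 -0.19, SE 0.16, adjusted p = 0.52). In both genes the groups overlapped over most of their range.

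The transcription factor and the secreted protein parted. Tbx3 (chromosome 5, 119670669 to 119684724, plus strand) lay between 19.6 and 58.0 CPM in frozen controls and between 20.7 and 39.7 CPM in treated mice, and did not pass (log2 -0.38, SE 0.24, adjusted p = 0.36). Lect2 (chromosome 13, 56542464 to 56548502, minus strand) ran from 92.7 through 110 to 128 CPM in controls and from 171 through 178 to 199 CPM with phenobarbital. No animal overlapped, and Lect2 rose 1.66-fold (log2 0.73, SE 0.07, adjusted p = 2.5e-05). It was the only member that rose in frozen tissue.

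**Figure D1:**
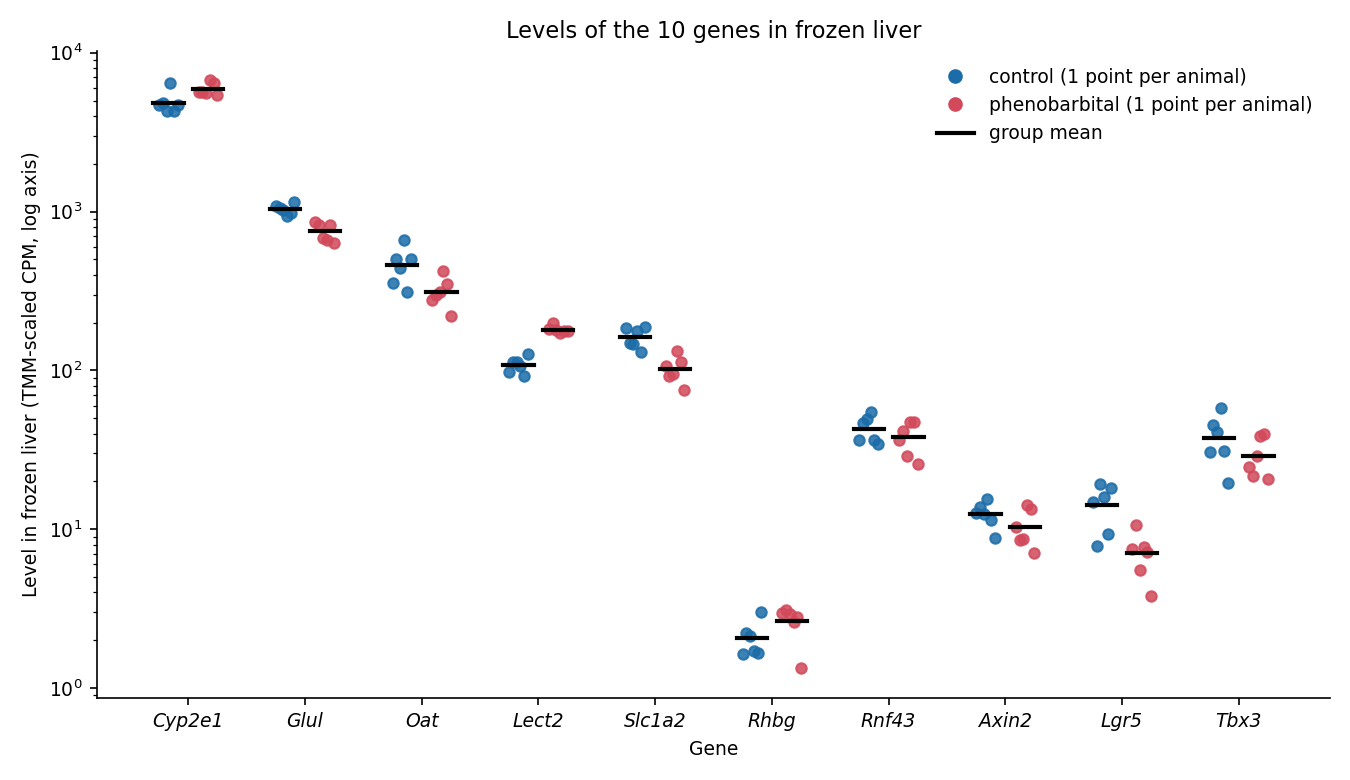
Level of each of the 10 genes in frozen liver, in TMM-scaled CPM on a log axis, with 1 point for each of the 6 control and 6 phenobarbital mice and a bar at the group mean. Lect2 is separated upward and Glul downward, while Slc1a2 and Lgr5 are lower with an overlap of few animals.

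Hepatocyte markers moved in the same direction as the members that fell. In frozen liver they summed to 101768 to 119959 CPM in controls and 79370 to 102202.5 CPM with phenobarbital. All 6 had negative log2 differences with a median of -0.33, and 0 of 6 passed. The 12 endothelial markers, which include the ligand genes Rspo3, Wnt2 and Wnt9b, summed to 563 to 671 CPM in controls and 504 to 663 CPM in treated mice. The part of these shifts in the falls of Glul, Slc1a2 and Lgr5 was not tested.

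The same contrast was repeated in the 7 preserved states of the same livers. Of the 10 members, 2 passed in ethanol tissue (6.98% of all genes tested passed), 3 in 18-hour formalin tissue (4.88%), 1 in 3-month formalin tissue (2.10%) and 3 in TAE-heated RNA (3.29%). The counts were 2 with heat only (5.03%), 4 with catalyst and AllPrep (4.94%) and 4 with catalyst and PureLink (4.65%). Because the 8 states share their 12 animals, agreement between them is not independent evidence about phenobarbital.

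Slc1a2 and Lect2 were each called in 7 of 8 states, Glul in 5, Oat in 2, and Lgr5 and Cyp2e1 in 1 each. Rhbg, Axin2, Tbx3 and Rnf43 were called in 0 of 8 by edgeR. Of these 4, the lowest adjusted p was 0.24, for Tbx3 in 18-hour formalin tissue.

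Slc1a2 had negative differences in all 8 states. In 18-hour formalin tissue the controls ran from 126 through 137 to 168 CPM and the treated mice from 61.0 through 77.9 to 96.8 CPM, with no overlap (log2 -0.83, SE 0.11, adjusted p = 0.00044). In 3-month formalin tissue they ran from 173 through 193 to 256 CPM and from 85.8 through 108 to 139 CPM (log2 -0.88, SE 0.14, adjusted p = 0.0014), which made Slc1a2 the single member called there. The groups did not overlap in 5 of 8 states. Ethanol tissue was the exception to the calls: controls ran from 101 to 169 CPM and treated mice from 60.1 to 115 CPM (log2 -0.46, SE 0.17, adjusted p = 0.12). The call with heat only (log2 -0.62, SE 0.15, adjusted p = 0.027) was lost without animal 8A, 21C, 90C or 20B, at most to an adjusted p of 0.059.

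Lect2 was higher with phenobarbital in all 8 states, with its smallest margin in heat-only tissue (log2 0.47, SE 0.09, adjusted p = 0.0069) and its widest in ethanol tissue. There the controls ran from 70.7 through 80.9 to 94.5 CPM and the treated mice from 141 through 152 to 161 CPM, a 1.88-fold rise (log2 0.91, SE 0.07). The groups were fully separated in 6 of 8 states. In 3-month formalin tissue, where Lect2 ran from 61.5 to 104 CPM in controls and from 102 to 145 CPM in treated mice, its log2 difference of 0.48 (SE 0.12) had an adjusted p of 0.059 by edgeR, and it passed with DESeq2, limma voom and library totals.

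Glul differences were negative in all 8 states, from -0.55 to -0.23 on the log2 scale. In 18-hour formalin tissue controls ran from 742 through 879 to 973 CPM and treated mice from 497 through 613 to 710 CPM, without overlap (log2 -0.50, SE 0.10, adjusted p = 0.0100). In ethanol tissue the treated mice spread from 499 to 946 CPM and enclosed all 6 controls, which lay between 695 and 888 CPM (log2 -0.23, SE 0.15, adjusted p = 0.39). Glul also fell with catalyst and AllPrep (log2 -0.55, SE 0.13, adjusted p = 0.018). The calls in TAE-heated RNA (log2 -0.51, adjusted p = 0.035) and with catalyst and PureLink (log2 -0.51, adjusted p = 0.034) were each lost without any 1 of 8 of the 12 animals, and the latter also with library totals. For TAE-heated RNA these were 8C, 8D, 21C, 82B, 90C, 20B, 20D and 80B (highest adjusted p = 0.087), and for PureLink 8A, 8D, 21C, 82B, 20B, 20D, 75C and 80B (highest adjusted p = 0.084).

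Oat differences were larger in the formalin material than in frozen or ethanol tissue, from -0.86 to -0.61 against -0.57 and -0.26 on the log2 scale, but its animals were widely spread. With catalyst and PureLink the controls ran from 229 through 254 to 475 CPM and the treated mice from 97.2 through 157 to 223 CPM. That was the single state in which the Oat groups did not overlap (log2 -0.82, SE 0.20, adjusted p = 0.030). With catalyst and AllPrep the controls ran from 213 through 251 to 467 CPM and the treated mice from 88.8 through 149 to 217 CPM (log2 -0.86, SE 0.22, adjusted p = 0.036). The PureLink call was lost without animal 8A, 18B, 18D, 20B or 80B (highest adjusted p = 0.066) and the AllPrep call without 8C, 21C, 90C, 18B, 18D, 20B or 80B (highest adjusted p = 0.086).

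Lgr5 differences stayed between -1.01 and -0.71 in the 8 states, yet only frozen tissue passed. In 3-month formalin tissue controls ran from 10.1 through 15.1 to 21.05 CPM and treated mice from 5.92 through 8.39 to 14.3 CPM, with 5 of 6 treated mice below the lowest control (log2 -0.79, SE 0.23, adjusted p = 0.097). Treated animal 18D was the highest of its group in heat-only tissue at 19.2 CPM, when the next treated animal had 10.3 CPM. Without 18D the adjusted p was 0.023 in 3-month formalin tissue, 0.029 with heat only, 0.035 with catalyst and AllPrep and 0.043 with catalyst and PureLink, and without control 8C it was 0.025 in 18-hour formalin tissue.

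Cyp2e1 was called once. In ethanol tissue controls ran from 3155 through 3618 to 4571 CPM and treated mice from 4739 through 4997 to 5360 CPM, with no overlap (log2 0.41, SE 0.11, adjusted p = 0.032). This call was lost without any 1 of 9 animals (8A, 8C, 8D, 82B, 18B, 18D, 20B, 20D or 80B; highest adjusted p = 0.083). In the formalin states its log2 difference lay between 0.06 and 0.22. Rhbg differences were positive in 5 states and negative in 3, from -0.50 to 0.40.

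Summing the 8 libraries of each mouse gave 6 against 6 deeper profiles, in which 7.44% of 18478 genes passed and 3 of the 10 members did. Slc1a2 fell (log2 -0.74, SE 0.12, adjusted p = 0.0026), Glul fell (log2 -0.43, SE 0.09, adjusted p = 0.014) and Lect2 rose (log2 0.65, SE 0.07, adjusted p = 6.2e-05). Lgr5 had a larger fitted difference with a wider error (log2 -0.82, SE 0.27, adjusted p = 0.090), and so did Oat (log2 -0.63, SE 0.19, adjusted p = 0.059). Both passed when single animals were left out, Lgr5 without 8C or 18D (lowest adjusted p = 0.032) and Oat without 82B or 20D (lowest adjusted p = 0.027). The median of the 10 log2 differences was -0.36, against 0.0046 for all genes tested. A negative median was not particular to the members: those of the hepatocyte markers and the periportal genes, given below, were also negative. That of the other listed pericentral genes was positive.

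**Figure D2:**
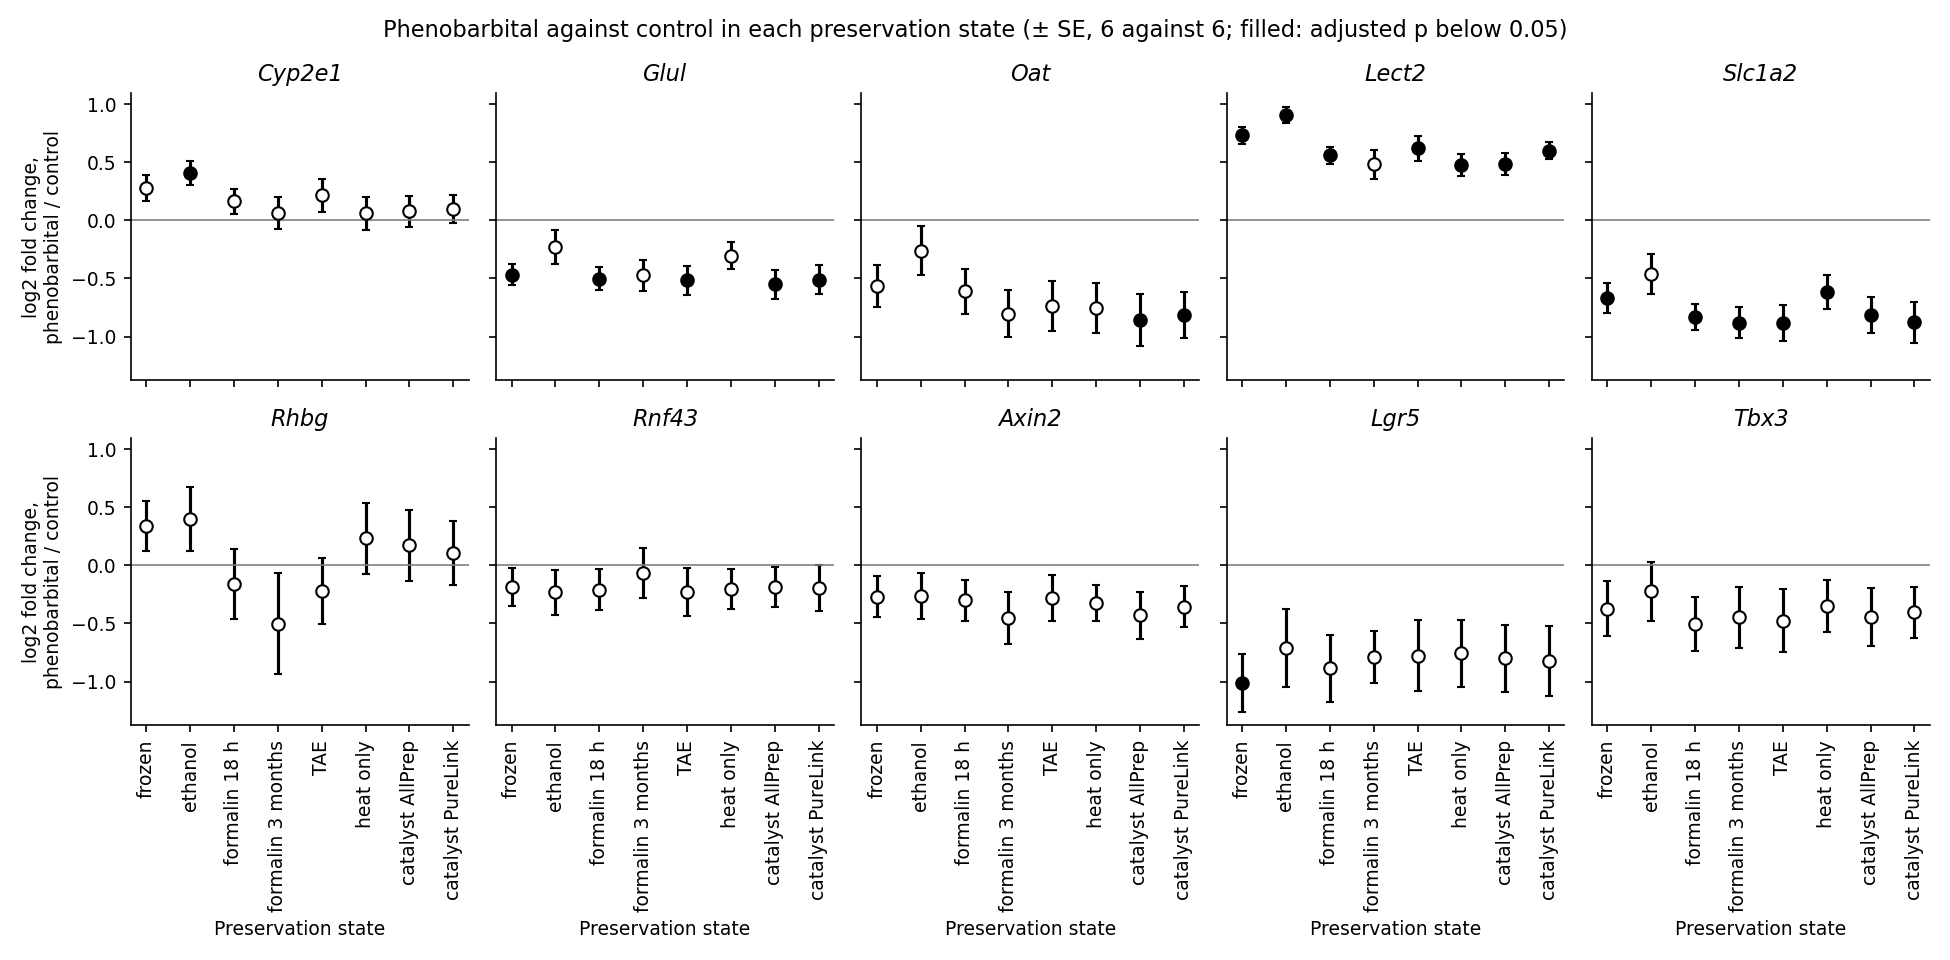
Log2 fold change of phenobarbital against control for each gene in the 8 preservation states, with bars of 1 standard error and filled points where the adjusted p was below 0.05 (6 against 6 mice in every state). Lect2 and Cyp2e1 lie above 0 in all 8 states, and Slc1a2, Glul, Oat, Lgr5, Axin2, Tbx3 and Rnf43 lie below 0. Rhbg lies on both sides.

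Whether the phenobarbital difference itself changed with preservation was tested as an interaction with frozen tissue. The share of all genes that passed was 0% in each of the 7 tests, and 0 of the 70 member tests passed by edgeR. DESeq2 called 0 of 70. An unadjusted p below 0.05 was reached by 2 member tests, both of Lect2, whose rise was smaller on the log2 scale by 0.27 with heat only (interaction -0.27, SE 0.12, adjusted p = 0.999) and by 0.26 with catalyst and AllPrep (interaction -0.26, SE 0.12). Lgr5 interactions lay between 0.13 and 0.30 and those of Slc1a2 between -0.22 and 0.20, so the state in which a member was called is not shown to differ from the states in which it was not. These fits did not pair the libraries of 1 liver. Over all genes, edgeR gave an unadjusted p below 0.05 for 170 of 14583 with ethanol and 662 of 14717 with heat only. With the animal as a block, 9 genes passed with heat only and 0 in the other states, with 0 members among them. In heat-only tissue the share of counts on mitochondrially encoded genes also differed between the groups, 5.82% in controls (4.96% to 7.19%) against 10.8% in treated mice (6.88% to 16.5%). Hepatocyte markers there summed to 61512 to 72211 CPM in controls and 35773 to 57466 CPM in treated mice, a shift whose part in the member values was not tested. With the mitochondrial genes left out of the library totals, each of the 90 phenobarbital tests of the members kept its call. TMM was run again there and already aligns libraries that differ in the share of few genes. The part of the mitochondrial share in the member values was therefore not tested.

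The levels of the 10 genes spanned 3 orders of magnitude, compared here as CPM per kilobase of annotated exon. In frozen controls the order was Cyp2e1 (2251 ± 370, SD, n = 6), Glul (312 ± 22.4), Oat (196 ± 52.4), Lect2 (118 ± 13.6), Slc1a2 (12.4 ± 1.81), Rnf43 (6.56 ± 1.29), Tbx3 (5.67 ± 2.03), Axin2 (2.26 ± 0.409), Lgr5 (1.39 ± 0.450) and Rhbg (1.07 ± 0.269). The 3 enzyme genes and the secreted protein held the first 4 places. The ranges of 4 neighbouring pairs overlapped and their order is not resolved: Oat with Lect2, Rnf43 with Tbx3, Axin2 with Lgr5, and Lgr5 with Rhbg. Cyp2e1, Glul, Slc1a2 and Axin2 kept their places in the controls of all 8 states.

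Against frozen tissue the level of many members changed with preservation, as did that of many other genes. With treatment as a covariate and 12 libraries a side, 5 members passed in ethanol tissue (32.8% of all genes tested), 5 in 18-hour formalin (41.1%), 5 in 3-month formalin (60.5%) and 6 in TAE-heated RNA (59.0%). The counts were 8 with heat only (57.0%), 7 with catalyst and AllPrep (50.4%) and 8 with catalyst and PureLink (59.2%). With the animal as a block, which compares each liver with itself, 9 members passed in ethanol tissue (53.0% of all genes), 8 in 18-hour formalin (57.9%), 7 in 3-month formalin (66.0%) and 8 with TAE (68.9%). The blocked count was 9 with heat only (66.8%), 9 with AllPrep (63.2%) and 9 with PureLink (71.2%).

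Oat, Cyp2e1 and Lect2 fell in all 7 preserved states and were lower than frozen in 12 of 12 animals in each. Oat lost most in 3-month formalin tissue (log2 -1.21), from 462 ± 124 CPM in frozen controls to 207 ± 65.8 CPM (SD, n = 6). Cyp2e1 fell by 0.29 on the log2 scale in ethanol tissue and by 0.77 in TAE-heated RNA, and Lect2 fell by 0.32 in ethanol tissue and by 0.79 with catalyst and PureLink. Of the 6 hepatocyte markers 3 fell in ethanol tissue (median log2 difference from frozen -0.26), 4 fell and 1 rose in 3-month formalin tissue (median -0.80), and 5 fell in TAE-heated RNA (median -1.11). The part of that shift in the falls of Oat, Cyp2e1 and Lect2 was not tested.

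Glul kept close to its frozen level in 3-month formalin tissue and TAE-heated RNA and was lower in the other 5 states. Control levels ran from 1035 ± 74.3 CPM in frozen tissue and 1008 ± 119 CPM in TAE-heated RNA to 777 ± 107 CPM with heat only (SD, n = 6). The fitted log2 difference was -0.02 in 3-month formalin tissue and -0.39 with catalyst and PureLink. When the states were ordered by the mean Glul level of the controls, the ranges of every pair of neighbours overlapped, and the same held for each of the other members.

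Slc1a2 went both ways. It was lower than frozen in 18-hour formalin tissue (log2 -0.27) and higher in 3-month formalin tissue (log2 0.28), and it did not pass in the other 5 states. Rhbg, with fewer than 50 counts in any library, fell in the 4 heated states, by 0.71 with TAE, 0.78 with heat only, 0.69 with catalyst and AllPrep and 1.00 with catalyst and PureLink.

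**Figure D3:**
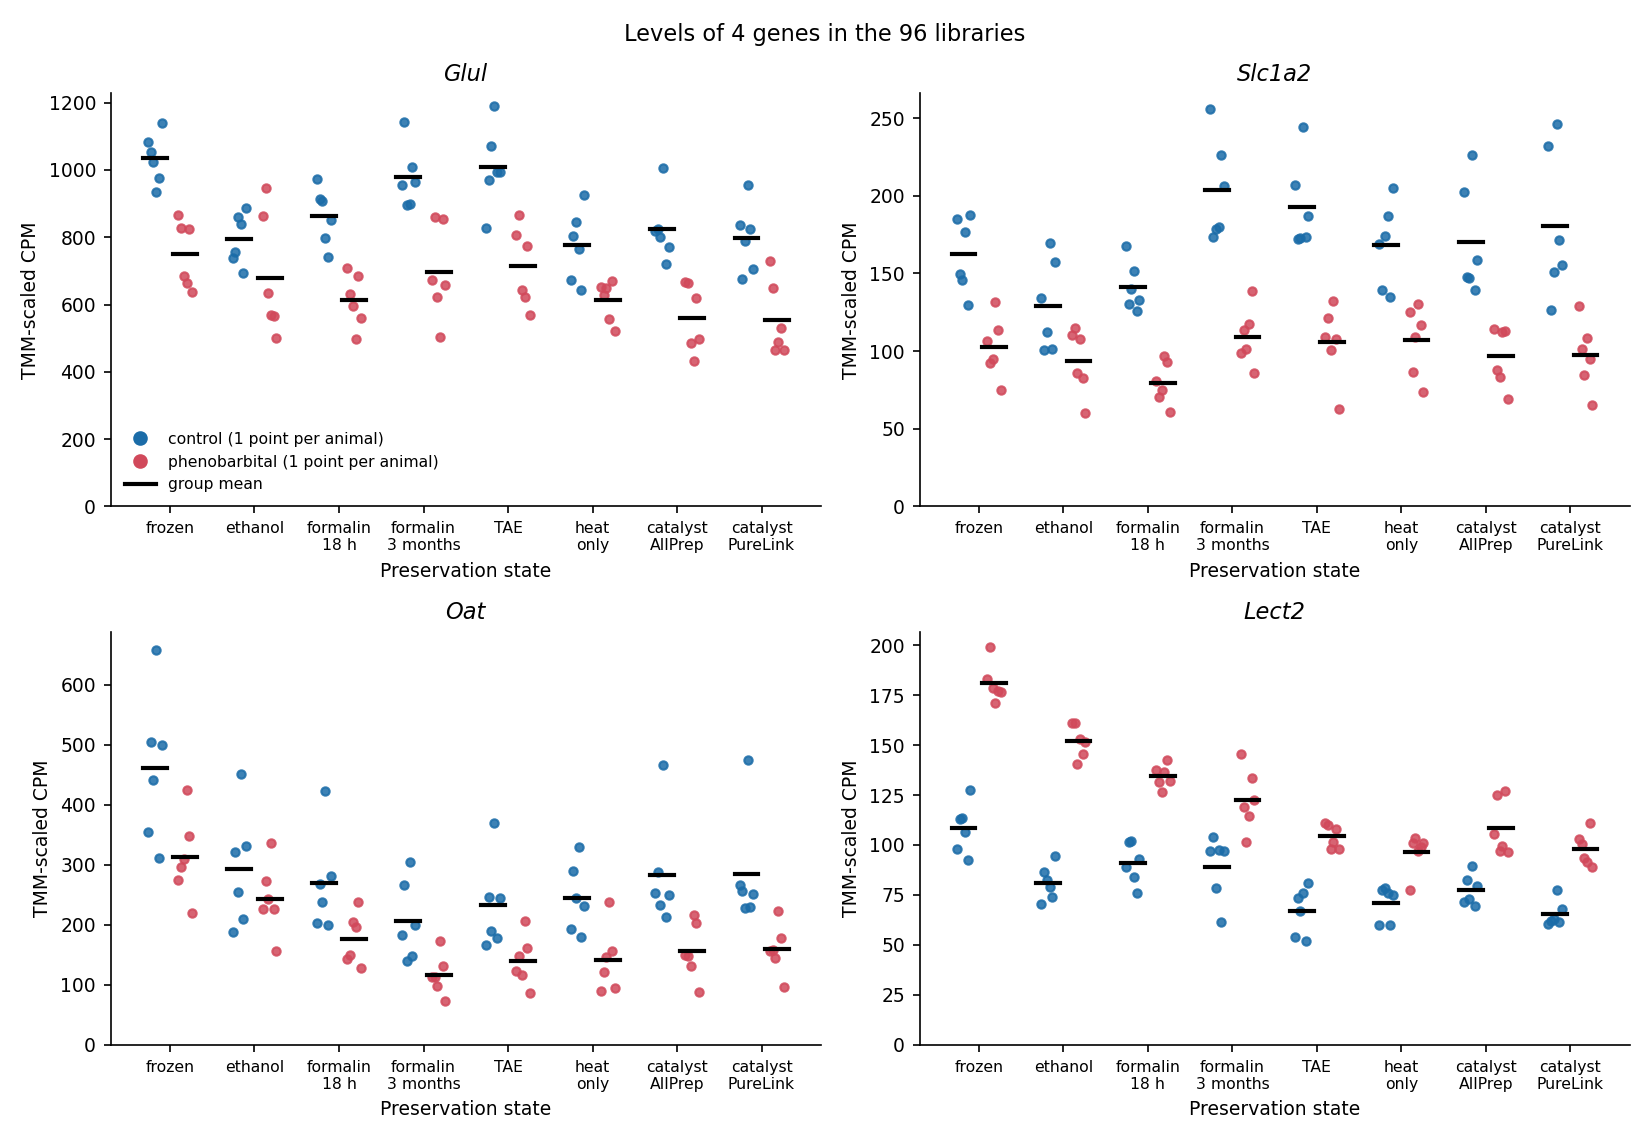
CPM of Glul, Slc1a2, Oat and Lect2 in the 8 states on a linear axis, with 1 point for each of the 6 control and 6 phenobarbital mice and a bar at the group mean. Lect2 groups do not overlap in 6 states, Slc1a2 groups in 5, Glul groups in 4 and Oat groups in 1, and the level of both groups moves with the state.

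Tbx3 and Axin2 changed only upward. Tbx3 was higher than frozen in 12 of 12 animals in each preserved state, and passed in the 3-month formalin material (log2 0.57 to 0.76). Axin2 passed in ethanol tissue (log2 0.38) and in the 4 heated states (0.36 to 0.49), while in 3-month formalin tissue Axin2 gave 0.01. Rnf43 rose with heat only (0.34) and with catalyst and PureLink (0.35), and gave -0.21 in 3-month formalin tissue, where 11 of 12 animals were lower than frozen. Lgr5 passed in 0 of 7 states without pairing, with log2 differences from -0.24 to 0.40. With the animal as a block it passed in 5 of them. It was lower in 18-hour formalin tissue (-0.27, adjusted p = 0.0061) and higher in 3-month formalin tissue (0.32, adjusted p = 0.0049), with heat only (0.38, adjusted p = 2.2e-05, 12 of 12 animals), with AllPrep (0.24, adjusted p = 0.0045) and with PureLink (0.37, adjusted p = 2.2e-05). With library totals it passed with heat only (0.65) and PureLink (0.66).

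In the 4 heated states the sign followed exon length: the 5 shortest members (Lect2, Rhbg, Cyp2e1, Oat and Glul, up to 3.323 kb) had negative differences and the 5 longest (Axin2, Rnf43, Tbx3, Lgr5 and Slc1a2, from 5.506 kb) positive ones, except that Glul turned with TAE under library totals and Slc1a2 with AllPrep without the low-count filter. None of the Slc1a2 differences there passed. By animal, Slc1a2 was lower than frozen in 3 of 12 with TAE, 5 with heat only, 7 with AllPrep and 6 with PureLink. The short members that fell numbered 4 with TAE and 5 in each other heated state, and the long members that rose numbered 2 with TAE, 2 with AllPrep and 3 in the other heated states. The same lean was present over all genes. With PureLink, the 5347 genes up to 3.323 kb had a median log2 difference of -0.12, with 25.8% higher and 39.8% lower. The 4842 genes from 5.506 kb had a median of 0.12, with 40.2% higher and 16.0% lower. In ethanol tissue the medians were -0.03 and -0.01. The lean was not limited to the heated states: unheated 3-month formalin tissue had medians of -0.05 and 0.08, beside -0.04 and 0.08 with TAE. In that unheated tissue the members also followed exon length by sign, except Rnf43 (-0.21), with Axin2 at 0.01. The part of this lean in the members' changes was not tested.

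**Figure D4:**
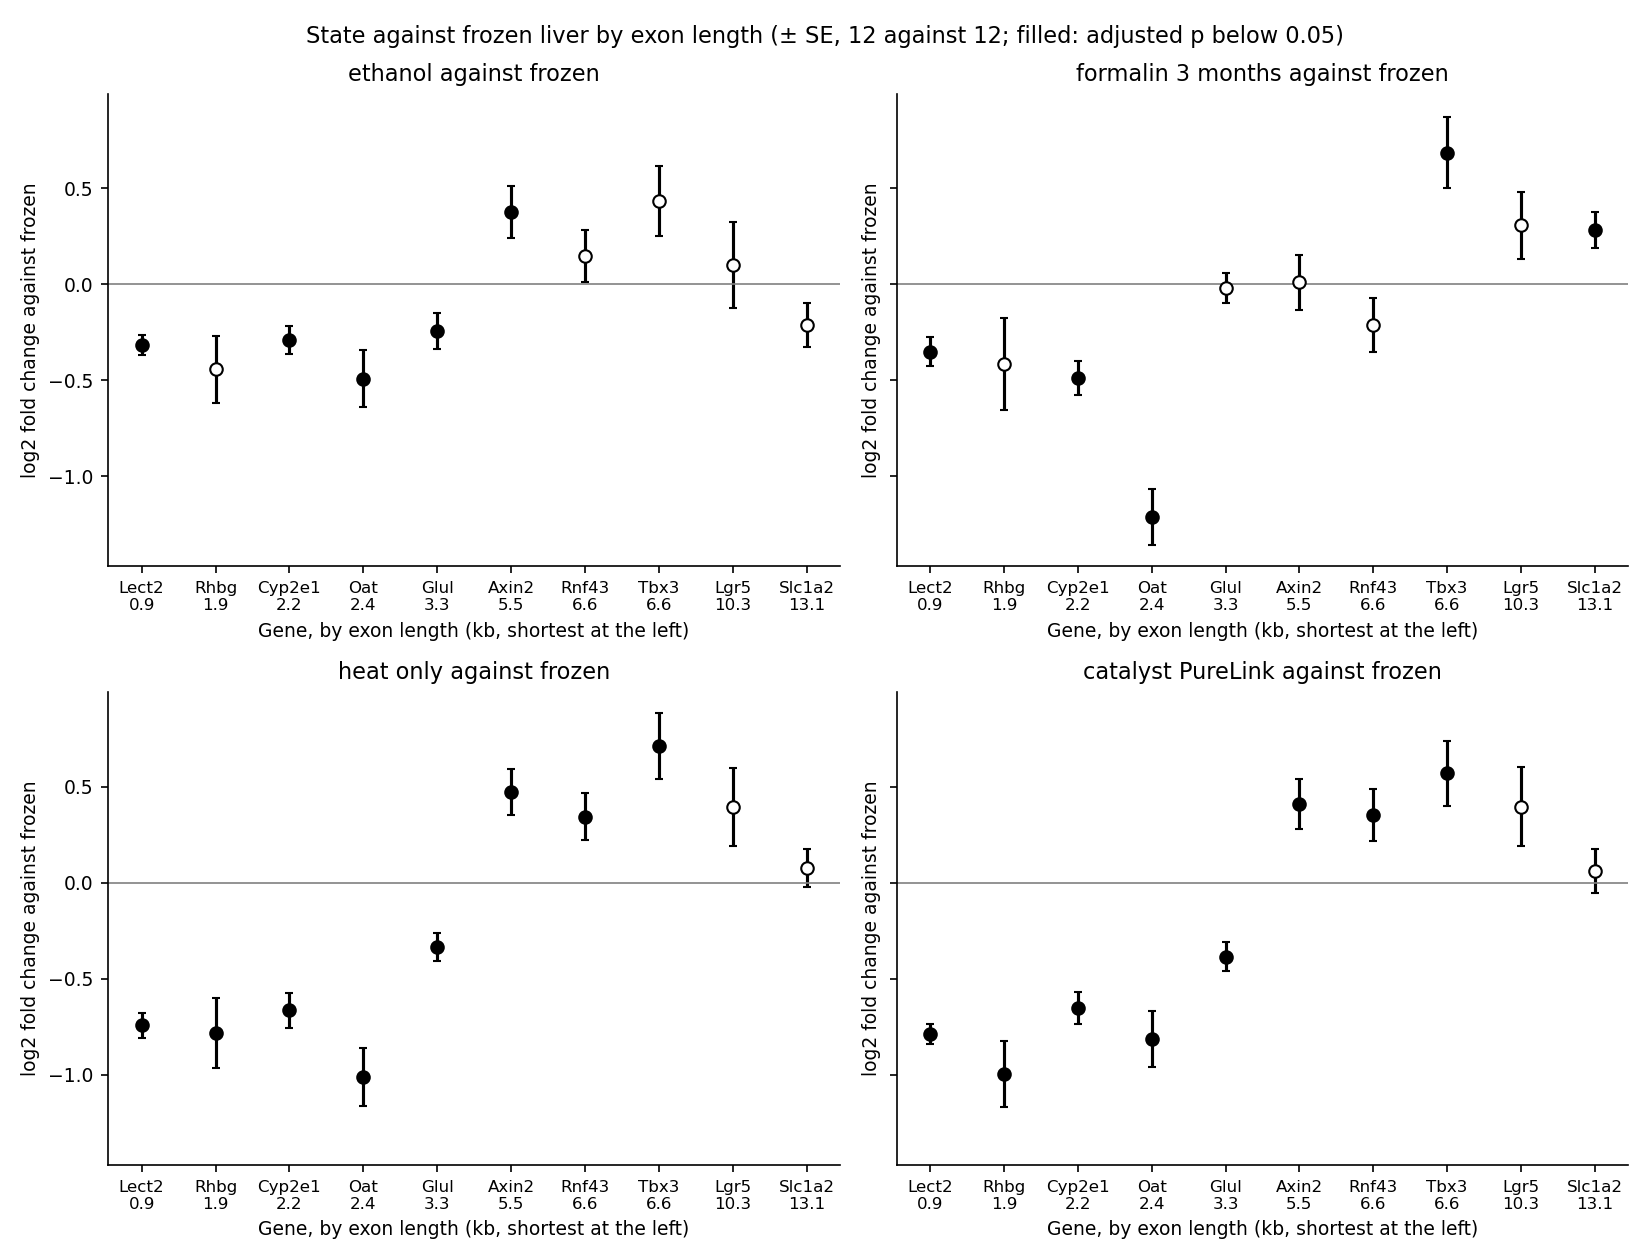
Log2 difference from frozen tissue in 4 states (ethanol, 3-month formalin, heat only, catalyst with PureLink) for the 10 genes ordered by exon length from 0.919 kb (Lect2) to 13.133 kb (Slc1a2), with bars of 1 standard error. Short members lie below 0 and long members above 0 in the heat-only and PureLink panels, and each sign there is the same with library totals.

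These directions depend on scaling. TMM assumes that most genes do not differ, and when libraries were scaled by their totals alone the median log2 difference of all genes from frozen moved up by 0.089 in ethanol tissue, 0.18 in 18-hour formalin tissue, 0.036 in 3-month formalin tissue, 0.23 with TAE, 0.26 with heat only, 0.21 with catalyst and AllPrep and 0.27 with catalyst and PureLink. The share of all genes that passed was then 32.6% in ethanol tissue, 49.4% in 18-hour formalin, 60.4% in 3-month formalin, 66.0% with TAE, 66.8% with heat only, 61.9% with AllPrep and 70.1% with PureLink. With that scaling the members split into 5 higher and 4 lower in TAE-heated RNA (2 and 4 with TMM), in heat-only tissue (3 and 5) and with PureLink (3 and 5), and 3 higher and 4 lower with AllPrep (2 and 5). They split into 2 higher and 1 lower in ethanol tissue (1 and 4) and 2 higher and 3 lower in both 18-hour (0 and 5) and 3-month formalin tissue (2 and 3). Glul in TAE-heated RNA turned from -0.01 to a rise of 0.22 (adjusted p = 0.016), and its falls in the other states no longer passed, nor did those of Oat (-0.40) and Cyp2e1 (-0.20) in ethanol tissue. Lect2 still fell in all 7 states with that scaling, and Tbx3 rose in all 7.

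The 4 added incubations were compared with untreated 3-month formalin tissue. Members passed in 2 of 10 cases after TAE (17.3% of all genes tested), 4 with heat only (46.8%), 6 with catalyst and AllPrep (47.4%) and 5 with catalyst and PureLink (59.8%). Axin2 and Rnf43 rose with heat only (log2 0.51 and 0.61), AllPrep (0.49 and 0.47) and PureLink (0.43 and 0.60). Glul fell in the same 3 states (-0.26, -0.31 and -0.33), as did Lect2 (-0.34, -0.22 and -0.40). Oat, the member furthest below frozen in 3-month formalin tissue, rose with catalyst and AllPrep (0.41) and with catalyst and PureLink (0.43), still 0.82 and 0.81 below frozen. With library totals Axin2, Rnf43 and Oat still rose in these comparisons, while 0 of the 3 falls of Glul passed and, of those of Lect2, only that with PureLink did.

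After TAE heating alone Cyp2e1 (-0.27) and Lect2 (-0.33) fell, and both lost their call with library totals (Cyp2e1 -0.092, adjusted p = 0.44, and Lect2 -0.16, adjusted p = 0.14). With the animal as a block 5 members passed, against 34.5% of all genes, among them Axin2 (0.39), Rnf43 (0.41) and Oat (0.20), each higher. Without the shallowest library, Cyp2e1 no longer passed (adjusted p = 0.051), nor did the fall of Slc1a2 with AllPrep (log2 -0.24, without it -0.20 at an adjusted p of 0.097). Adding the catalyst to heat, with the AllPrep kit in both, changed 0 of 10 members by edgeR, with 0.891% of all genes passing. Of the 10 members, 1 (Lect2) had an unadjusted p below 0.05, and DESeq2 called 0 of the 9 for which it gave an adjusted p. With the animal as a block 1 member passed, Rnf43 (log2 -0.13, adjusted p = 0.031), when 1930 of 13807 genes (14%) did.

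Animals kept levels of their own in these genes across states. After the mean of each state and treatment group was subtracted from log2 CPM, the animal held 93.8% of the remaining spread of Tbx3, 92.0% of Rnf43, 86.2% of Lgr5, 85.5% of Oat and 75.8% of Axin2. The share was 71.4% for Cyp2e1, 69.5% for Slc1a2, 56.2% for Glul, 51.6% for Lect2 and 36.8% for the scarce Rhbg, and the median of all genes was 44.4%. Each animal gave 1 liver, so a difference between animals cannot be told apart from one in the mix of lobe pieces taken from it.

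Control 90C was lowest for Tbx3, with a mean deviation of -0.96 on the log2 scale, and for Axin2 (-0.62), while control 21C was highest for Tbx3 (0.76), Rnf43 (0.42), Oat (0.66) and Cyp2e1 (0.40). Treated animal 80B was the lowest for Rnf43 (-0.57), Oat (-0.59) and Slc1a2 (-0.49), and below its group mean for those genes in 8 of 8 states. Lgr5 followed other animals, lowest in control 8C (-0.93) and highest in treated 18D (0.82). Over the 96 libraries the deviations of Axin2 and Tbx3 had a Pearson r of 0.78, Axin2 and Rnf43 0.77, Tbx3 and Rnf43 0.81, and Oat and Cyp2e1 0.75. Over the 12 animal means these were 0.87, 0.91, 0.83 and 0.80. Lgr5 and Tbx3 had -0.03 over the libraries. The points share animals and library preparation, so these values describe the 12 livers only.

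**Figure D5:**
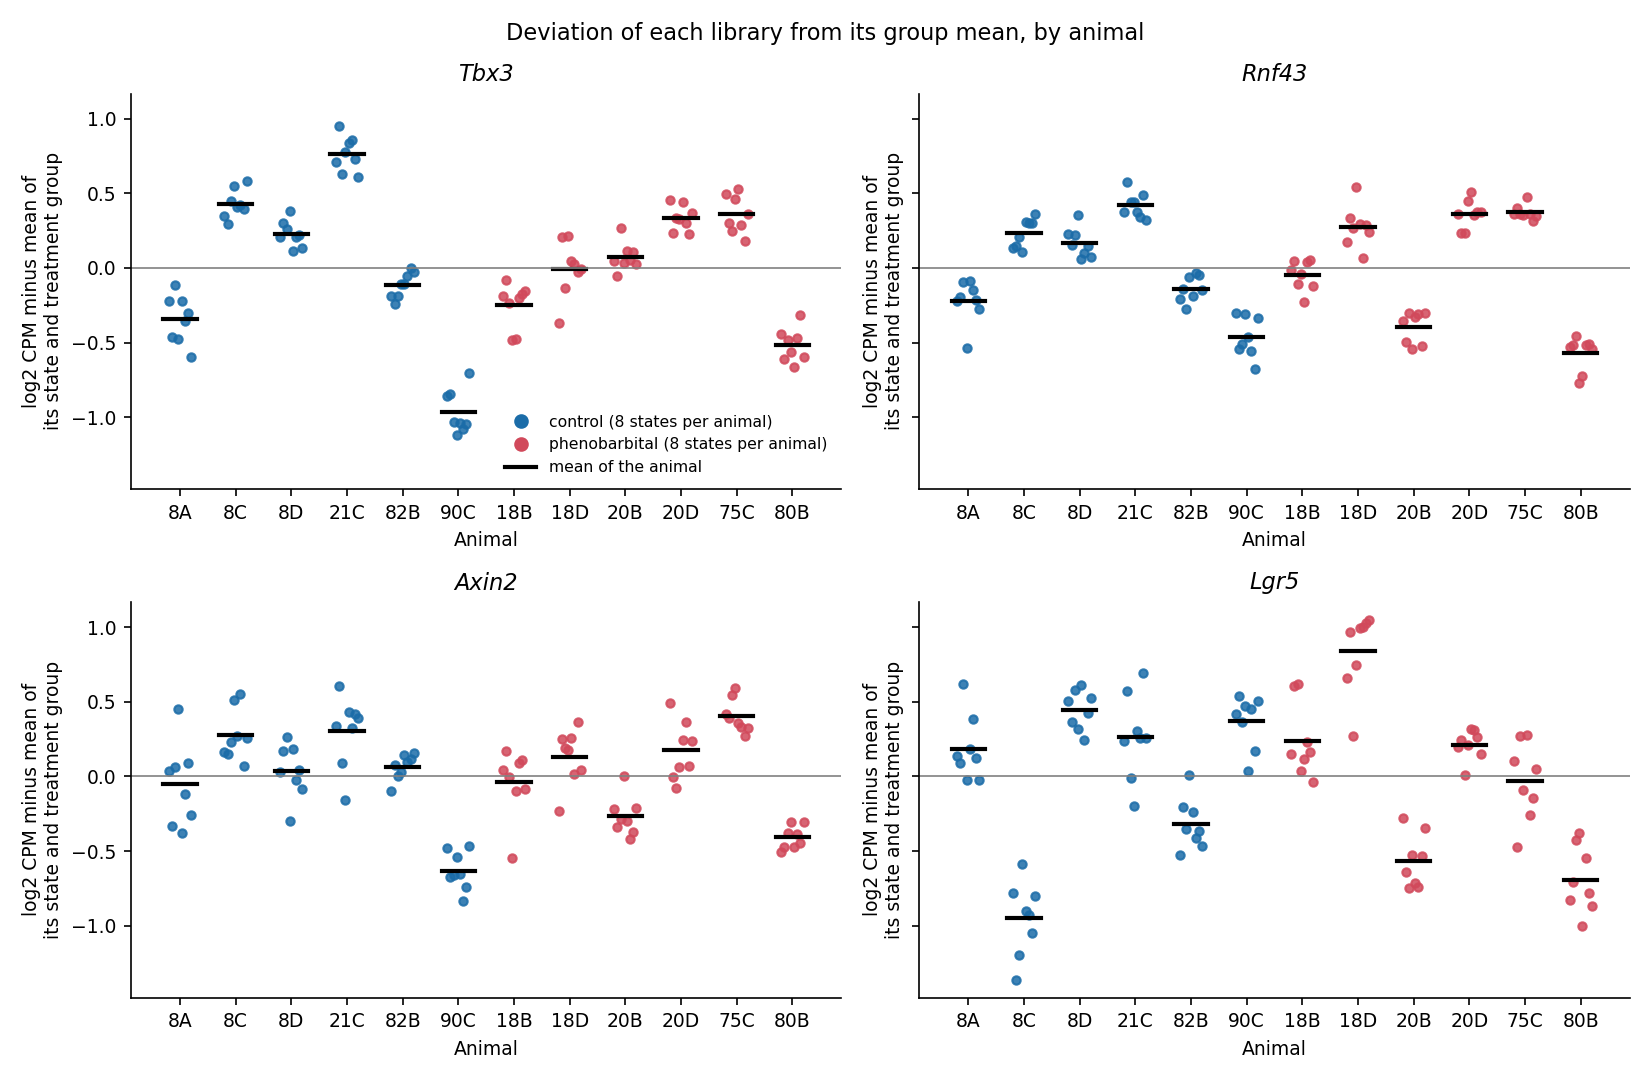
Deviation of log2 CPM from the mean of its state and treatment group for Tbx3, Rnf43, Axin2 and Lgr5 in each of the 12 animals, with 1 point for each of the 8 states. Points of 1 animal lie close together, with 90C far below 0 and 21C above 0 for Tbx3, and Lgr5 in another order of animals.

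The genes most like each member in this measure were taken from 11268 protein-coding genes, as the 3 with the highest Pearson r over the 96 libraries. For Axin2 they were Tbx3 (0.78), Inhbe (0.78) and Rnf43 (0.77), for Tbx3 Epha2 (0.85), G0s2 (0.82) and Rnf43 (0.81), and for Rnf43 they included Fgd6 (0.85) and Tbx3 (0.81). The nearest to Oat was Pon1 (0.83). Cyp2e1 was nearest to Acadm (0.82), Dpys (0.80) and Acad11 (0.79). Lgr5 was nearest to Wdr91 (0.79), Fam214a (0.79) and Sort1 (0.78), Slc1a2 to Susd4 (0.67), Nox4 (0.66) and Ralgapa2 (0.65), and Glul to Pdilt (0.70), Rnase2a (0.69) and Lrtm1 (0.66). Lect2 was nearest to Akr1c6 (0.77), Abcg2 (0.68) and Pon1 (0.67), and Rhbg to Trmt9b (0.57), Susd4 (0.55) and Gulo (0.54).

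Other genes of the pathway were read from lists by role, in the summed comparison, where 7.44% of all genes passed. Of 13 ligands and secretion genes 10 were tested, with 1 higher, 0 lower and a median log2 difference of -0.04. The one that passed was Wls, which carries Wnt proteins to the cell surface (log2 0.33, SE 0.08, adjusted p = 0.023), called in 2 of 8 states. The R-spondin gene Rspo3 gave 0.03 (SE 0.11) and Wnt2 -0.06 (SE 0.20), and in frozen liver their levels were 7.59 and 4.22 CPM in controls and 6.70 and 3.68 CPM in treated mice.

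Of 17 receptors and co-receptors 14 were tested, with 0 higher, 1 lower and a median of -0.12. Lrp5, a co-receptor, fell (log2 -0.45, SE 0.06, adjusted p = 0.00046), from 149 to 106 CPM in frozen liver, and was called in 7 of 8 states. Its relative Lrp6 gave -0.16 (SE 0.07) and Lgr4, the paralogue of Lgr5, -0.20 (SE 0.07).

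Inhibitors and turnover genes were split, 9 of 16 tested with 1 higher, 1 lower and a median of -0.13. Notum, a secreted enzyme that inactivates Wnt proteins and is itself a pericentral target, fell (log2 -0.90, SE 0.18, adjusted p = 0.0099) and was called in 7 of 8 states. Dkk3 rose (log2 1.16, SE 0.21, adjusted p = 0.0050) from a low level, 2.53 to 3.89 CPM in frozen liver, and was called in 4 of 8 states. Kremen1 gave -0.20 (SE 0.07) and Znrf3, the paralogue of Rnf43, -0.22 (SE 0.11).

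Beta-catenin itself, Ctnnb1, lay at 350 CPM in frozen controls and 355 CPM in treated mice (summed log2 0.02, SE 0.05, adjusted p = 0.88). A list of 11 genes held beta-catenin, its destruction complex and the Dishevelled genes Dvl1, Dvl2 and Dvl3, which lie outside that complex. Of these 11 genes 0 were higher and 2 lower, with a median of -0.13. The 2 were Apc (log2 -0.17, SE 0.04, adjusted p = 0.017) and Dvl3 (log2 -0.28, SE 0.07, adjusted p = 0.023), called in 2 and 0 of the 8 single states. Csnk1a1 gave -0.03 (SE 0.05). Of 13 TCF factors and nuclear partners Tcf7 fell (log2 -0.55, SE 0.09, adjusted p = 0.0020; called in 2 of 8 states), 0 were higher and the median was -0.12. Tle1 gave -0.25 (SE 0.15) and Bcl9l -0.27 (SE 0.10).

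General Wnt targets, 10 of 11 tested, included 2 that rose and 2 that fell (Notum and Tcf7), with a median of -0.16. Ccn4, a secreted matricellular protein, rose from 4.31 to 32.7 CPM in frozen liver (summed log2 2.94, SE 0.13, adjusted p = 1.55e-08), and the receptor Tnfrsf19 rose from 4.29 to 12.4 CPM (summed log2 1.45, SE 0.19, adjusted p = 0.00049). Both were called in 8 of 8 states. Ccnd1 gave -0.20 (SE 0.20).

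The listed pericentral hepatocyte genes outside the set went up or did not pass, in a list that leaves out Notum, which fell. Of 15 tested, 7 rose and 0 fell, with a median of 0.38, and the largest were P450 enzymes that phenobarbital is known to induce: Cyp2c54 (log2 4.60), Cyp2c37 (4.08) and Cyp2c50 (3.68), followed by the retinal dehydrogenase gene Aldh1a1 (1.80). These P450 paralogues are near-identical copies, so their counts are uncertain. Rgn gave -0.06 (SE 0.13) and Gulo -0.34 (SE 0.12). Of 16 periportal genes 0 rose and 4 fell, with a median of -0.25: Pck1 of gluconeogenesis (log2 -1.34), Ass1 (-0.56) and Arg1 (-0.29) of the urea cycle, and Pigr (-0.29). Cps1 gave -0.12 (SE 0.13) and Cyp2f2 -0.10 (SE 0.11).

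Markers of the cell types in the tissue were read in the same summed comparison. Hepatocyte markers had a median of -0.38 with 0 of 6 called, and Kupffer cell markers 0.36 with 0 of 6. Among 12 endothelial markers Lyve1 rose (log2 0.86) and the median was 0.10, and among 7 stellate cell and fibroblast markers Col3a1 rose (log2 0.64) and the median was 0.11. Bile duct markers had a median of 0.10 and erythroid markers -0.11, with 0 of 5 called in each.

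Annotated genes that overlap a member could share its reads, and no label states how the counting treated such reads. Counts on Fgfr2, annotated over part of Oat on the same strand, came to 26.0% of those on Oat, counts on 1110028F11Rik, on the strand of Rnf43, to 10.8%, on the antisense Tbx3os1 to 5.36% of Tbx3, and on Gm38392, on the strand of Rhbg, to 2.57%. For the other 6 members the share was below 0.2%.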

How the data were processed

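Livers of 12 mice gave 96 stranded total RNA libraries depleted of ribosomal RNA, 6 per treatment in each of 8 states. The authors deposited raw counts per gene. Per the submitters' processing notes, CASAVA, STAR 2.5 and edgeR were used with GRCm38 (mm10), without stated roles. No label or header names the tool that counted reads, its annotation or its strand setting. A second deposited table was not used here.

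From the counts, 92 spike-in lines (110 counts in all) were removed, leaving 47373 genes, of which 46954 matched GENCODE M21 (GRCm38), the source of coordinates and exon lengths. Tests used edgeR 4.0.16 in R 4.3.3: TMM scaling, the filterByExpr low-count filter, the quasi-likelihood F test and Benjamini-Hochberg adjustment at 0.05 over all genes tested. Each SE was taken as the size of the log2 difference over the root of its F statistic. Levels are CPM scaled by TMM over all 96 libraries. The tests across genes were tried on simulated data with known changes. Treated and control mice were compared state by state and on counts summed per mouse, states were compared with treatment as covariate, and interactions were tested against frozen tissue.

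Same-animal libraries deviated together, as the same liver gave all 8. All 336 same-animal pairs had a correlation above 0.1 (median 0.55), against 827 of 3696 pairs between other animals (median -0.048). The animal therefore pairs libraries across states but not treatments. P-values between treatments measure the spread between mice. No 2 libraries were identical.

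The members and lists were chosen with earlier results of these data known. Named genes were all members, up to 4 called genes per list with the largest change in the summed comparison, up to 2 uncalled genes per list with the highest mean CPM, and the 3 protein-coding genes most correlated with each member. Some of the latter are not reported here. All 153 list entries in 14 lists were found. Alternatives were DESeq2 1.42.0, limma 3.58.1 (voom with quality weights), no filter, DESeq2-type size factors, library totals alone, the animal as block and each animal left out; leaving out the shallowest library or the mitochondrial genes was chosen after seeing the data.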

Additional observations from a re-analysis of the deposited data

Results flagged for a closer look

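In 13 of the 160 groups of 6 libraries (10 genes, 8 states, both treatments) a single animal stood far from the other 5 by Dixon's criterion, which chance alone meets in about 1 group in 20. The groups reuse the same 12 animals, so the flags are not independent of each other. Control 21C was the highest animal in 8 of the 13, in 3 genes. Its Oat level was 423 CPM in 18-hour formalin tissue (next highest 282), 467 CPM with catalyst and AllPrep (289) and 475 CPM with catalyst and PureLink (266). Its Cyp2e1 level was 6422 CPM in frozen tissue (4820.1), 4495 CPM in 18-hour formalin tissue (3528), 4889.5 CPM with catalyst and AllPrep (3383) and 4099 CPM with heat only (3315). Its Glul level was 1004 CPM with catalyst and AllPrep (824).

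Control 90C was lowest for Axin2 in 18-hour formalin tissue, at 8.73 CPM with the next at 13.8. Among treated mice, 18D was highest for Lgr5 with heat only (19.2 CPM, next 10.3), 20D was highest for Cyp2e1 in 3-month formalin tissue (4302 CPM, next 3671), 80B was lowest for Rhbg in frozen tissue (1.33 CPM, next 2.60) and 18B was lowest for Lect2 with heat only (77.7 CPM, next 96.8).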

How the results depend on the processing

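The falls of Slc1a2 and Glul and the rise of Lect2 in frozen tissue and on summed counts held their call and direction whichever of the 12 animals was left out. With 1 animal left out, the members called for phenobarbital numbered 3 to 5 in frozen tissue, 1 to 2 in ethanol, 3 to 4 in 18-hour formalin, 1 to 2 in 3-month formalin, 2 to 3 after TAE, 1 to 3 with heat only, 3 to 4 with AllPrep, 2 to 4 with PureLink and 3 to 4 on summed counts. Over all genes, calls then numbered 872 to 1487 in frozen tissue, 650 to 1098 in ethanol and 425 to 796 in 18-hour formalin. They numbered 191 to 275 in 3-month formalin, 334 to 493 after TAE, 417 to 776 with heat only and 505 to 771 with AllPrep. Each of these fits tested between 13153 and 14239 genes. With no animal left out, 4.65% of all genes passed with PureLink and 7.44% on summed counts. The log2 difference of 4 uncalled results changed sign: Tbx3 in ethanol tissue ranged from -0.36 to 0.021 (without 21C), Rnf43 in 3-month formalin tissue from -0.18 to 0.055 (without 8D 0.0054, 21C 0.020, 20B 0.028 and 80B 0.055), Rhbg with AllPrep from -0.020 to 0.29 (without 8D -0.020) and with PureLink from -0.050 to 0.22 (without 8C -0.020, without 18B -0.050).

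DESeq2 called more members for phenobarbital: 5 in 18-hour formalin (6.73% of all genes it tested), 5 in 3-month formalin (3.14%), 4 with heat only (6.51%) and 5 on summed counts (10.1%). In 3-month formalin tissue limma voom (280 of 13018 genes), no filter (343 of 24890) and library totals (2.43% of all genes) each called 2. In ethanol tissue no filter (869 of 26539 genes) and library totals (6.65%) each called 1, and with PureLink library totals (4.95%) called 2. With library totals 3 members passed in ethanol against frozen tissue (32.6%) and 3 with AllPrep against 3-month formalin (51.4%). After TAE against 3-month formalin, 1 passed without the filter and 1 without the shallowest library (17.3% of all genes in the main fit). The cause was not tested.

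The animal as a replicate block, which pairs libraries of 1 liver, raised the members called to 9 in ethanol (53.0% of all genes) and 8 in 18-hour formalin (57.9%) against frozen, 5 after TAE against 3-month formalin (34.5%), and 1 between catalyst and heat only (14%). Against frozen it gave 7 in 3-month formalin (66.0%), 8 with TAE (68.9%) and 9 with heat only (66.8%), AllPrep (63.2%) and PureLink (71.2%). Against 3-month formalin it gave 5 with heat only (55.9%), 6 with AllPrep (57.8%) and 7 with PureLink (66.7%). No interaction of a member passed with it. It turned 2 uncalled values, Tbx3 with AllPrep against 3-month formalin (0.0064) and the Axin2 interaction in ethanol tissue (0.0027).

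Library totals alone turned these log2 differences. Against frozen tissue they were Rhbg (0.023) and Rnf43 (0.14) in 18-hour formalin, and Glul in 3-month formalin (0.014) and after TAE (0.22). Against 3-month formalin they were Lgr5 (0.081) and Slc1a2 (0.099) after TAE, Slc1a2 (0.014) and Cyp2e1 (0.048) with heat only, Tbx3 (0.14), Lgr5 (0.13) and Cyp2e1 (0.13) with AllPrep, and Slc1a2 (0.0072), Tbx3 (0.12) and Cyp2e1 (0.068) with PureLink. Among interactions they were Glul in 3-month formalin (0.029), Axin2 after TAE (0.011) and Rnf43 with AllPrep (0.063) and PureLink (0.028).

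Other values near 0 also turned: Axin2 in 3-month formalin against frozen with DESeq2 (-0.017), no filter (-0.082), size factors (-0.015) and without the shallowest library (-0.041), Slc1a2 with AllPrep against frozen (-0.00070) and Tbx3 with AllPrep against 3-month formalin (0.0013) without the filter, the Tbx3 interaction with heat only by DESeq2 (-0.00020), and Tbx3 for phenobarbital in ethanol by limma voom (0.0061). Depth limited Rhbg most, at no more than 43 counts in a library.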
